A study of Mus musculus with 12 samples.

Results

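The 10 enzyme genes described here make serine, carry its one-carbon units on folate inside mitochondria, make asparagine and proline, or break down glutathione, and all are known targets of the transcription factor ATF4. They were chosen by name: every probe set whose platform gene symbol was Phgdh, Psat1, Psph, Shmt2, Mthfd2, Mthfd1l, Aldh1l2, Asns, Aldh18a1 or Chac1. That gave 23 of 45037 probe sets for 10 of 18193 genes, and 2 further probe sets that the annotation gives to Phgdh together with another gene. The left ventricles of 12 mice were measured, with a separate Affymetrix whole-genome array for every heart.

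The mice fell into 4 groups of 3. TG tamoxifen mice carried the ATF6-MER transgene and received tamoxifen, TG vehicle mice carried the transgene and received vehicle, NTG tamoxifen mice were non-transgenic littermates given tamoxifen, and NTG vehicle mice were non-transgenic littermates given vehicle. ATF6-MER is a fusion protein: ATF6, which drives genes of protein folding when the endoplasmic reticulum (ER) is stressed, is held inactive by a mutated estrogen receptor domain until tamoxifen binds. The labels do not name the promoter of the transgene, and the published line of this name uses the cardiac alpha-myosin heavy chain promoter, which acts in cardiomyocytes. All mice were C57BL/6 males labelled as about 30 weeks old, except TG tamoxifen 1, labelled 40 weeks. The length of the tamoxifen treatment is not given in the sources used here.

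Serine is made from a glycolytic intermediate by Phgdh, Psat1 and Psph in turn. In mitochondria, Shmt2 passes a carbon of serine to folate, Mthfd2 oxidises that carbon, and Mthfd1l releases it as formate for purine and thymidylate synthesis, while Aldh1l2 instead burns it to carbon dioxide. ATF4 is made when the kinases of the integrated stress response phosphorylate eIF2alpha, and it then turns on these genes together with Asns, Aldh18a1 and Chac1. In the adult heart this response is known chiefly from mitochondrial disease and ER stress.

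Array NTG tamoxifen 1 went against its label. Its log2 level of Esr1, the gene of the receptor used in the fusion, was 17.72, against 10.88 and 9.89 in the other two NTG tamoxifen hearts, and its Hspa5, the main ER chaperone, was 18.05, against 15.65 and 15.49. It is called the array labelled NTG tamoxifen 1, and results are given with and without it. Esr1 stood at 8.7, 7.15 and 7.27 in NTG vehicle, so the remaining NTG tamoxifen hearts also lay above every NTG vehicle heart. The title of TG vehicle 3 says vehicle and its treatment field says tamoxifen, and the titles set the groups. Its Hspa5 level was 15.94, against 16.39 and 15.76 in the other two TG vehicle hearts and 18.37 to 18.47 in TG tamoxifen. Median intensity per array ran from 648.5 to 833.8. Beta-actin probe sets at both ends of the transcript report on RNA quality, and their 3' to 5' ratio was between 1.75 and 1.88 for TG tamoxifen, 1.32 and 1.68 for TG vehicle, 1.78 and 1.97 for NTG tamoxifen, and 2.12 and 2.43 for NTG vehicle, and that of Gapdh overlapped between TG tamoxifen and TG vehicle (0.745 to 0.778 and 0.759 to 0.787).

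The first comparison, TG tamoxifen against TG vehicle, asks how ventricles with the activated fusion differ from those with the fusion and no drug. In it, 5 of the 10 enzyme genes rose and 0 fell: Mthfd2, Psat1, Chac1, Aldh18a1 and Asns. Of the 11166 genes tested, 10.4% rose, and the median log2 change was 1.82 over the 10 genes and -0.07 over all genes tested. On the offset scale used here, the mean of Mthfd2 was 20.3-fold higher, of Psat1 16.2-fold, of Chac1 7.22-fold, of Aldh18a1 5.95-fold and of Asns 5.3-fold. In 7 of the 10 genes, Phgdh and Psph included, every TG tamoxifen heart lay above every TG vehicle heart, as held for 19.8% of all genes tested. Here and below, levels are quantile-normalised log2(intensity + 16), changes are log2 differences ± standard error (SE), and p-values are from limma, adjusted by Benjamini-Hochberg over all genes tested. They rest on 1 estimate of the spread within groups of 3 hearts, shared by all 4 groups. Arrays outside a comparison thus also set its p-values. In this comparison the SE of Psat1 was 0.81 with the array labelled NTG tamoxifen 1 and 0.24 without it. In bulk tissue, fewer cells of a type and less RNA per cell cannot be told apart.

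These 5 calls rested on the labels and on the spread between arrays in 3 ways. With TG vehicle 3 grouped by its treatment field, or with the beta-actin ratio as a covariate, 0 of the 10 genes passed the test, and without both TG vehicle 3 and TG tamoxifen 1, 2 passed. With the covariate the changes themselves were 3.84 for Mthfd2, 3.78 for Psat1, 2.78 for Aldh18a1, 2.77 for Chac1 and 2.35 for Asns (adjusted p = 0.0607 to 0.161). With TG vehicle 3 regrouped they were 3.23, 3.41, 2.5, 1.91 and 2.29 in the same order of genes. With the covariate and the array labelled NTG tamoxifen 1 left out, 5 passed. Without that array alone, 7 of the 10 passed, Psph and Aldh1l2 being added, beside 12.9% of all genes tested.

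**Figure D1:**
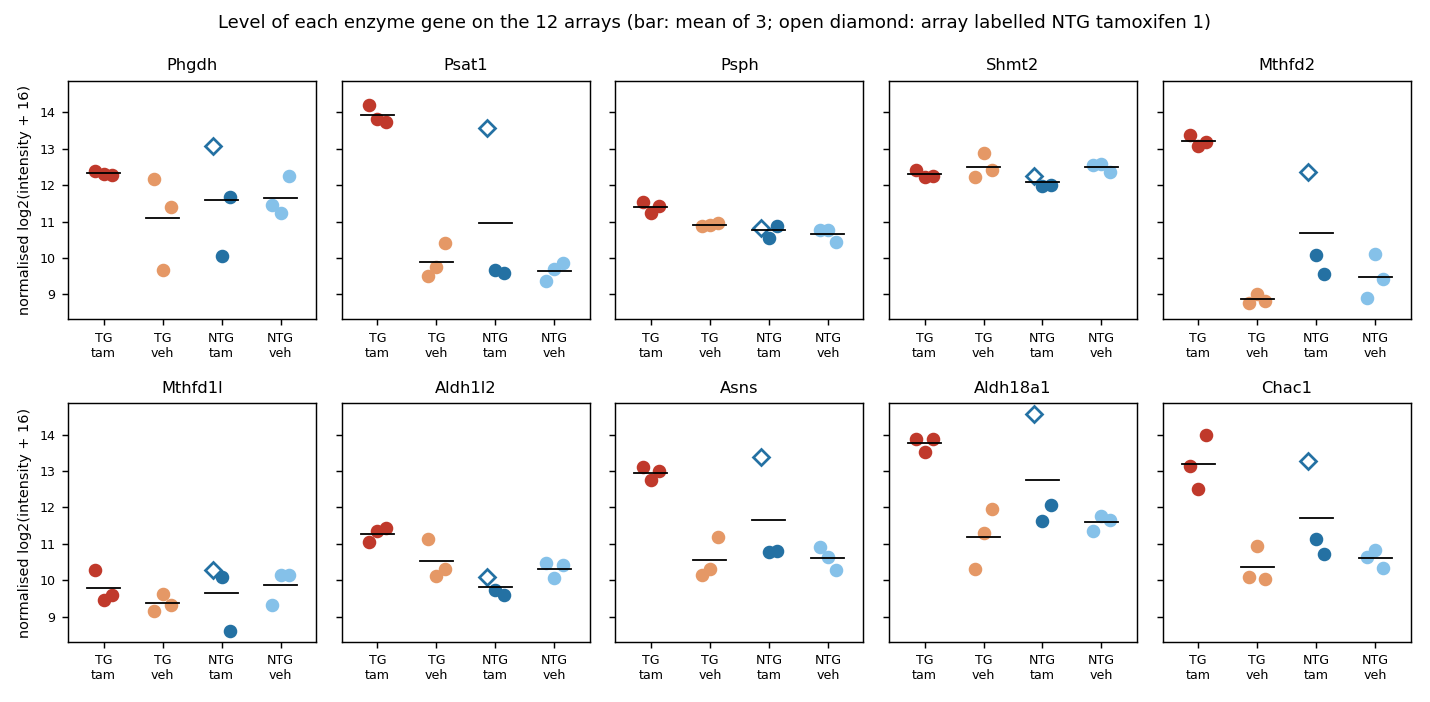
Quantile-normalised log2(intensity + 16) of the 10 enzyme genes (vertical axis) on the 12 arrays, by group from left to right: TG tamoxifen (tam), TG vehicle (veh), NTG tamoxifen and NTG vehicle. Points are hearts, bars are means of 3, and the open diamond is the array labelled NTG tamoxifen 1. Mthfd2 stood at 13.08 to 13.38 in TG tamoxifen and at 8.76 to 9.01 in TG vehicle, while Shmt2 lay between 11.97 and 12.88 on all arrays.

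Of the 3 enzymes of serine synthesis, Psat1 rose, and Phgdh and Psph did not pass the test. Psat1, the aminotransferase of the second step, had levels of 14.20, 13.82 and 13.73 in the TG tamoxifen hearts, against 9.51, 9.76 and 10.42 in the TG vehicle hearts. The groups were far apart, and the change was 4.02 ± 0.81 (adjusted p = 0.00625). Its second probe set gave a change of 5.17.

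Phgdh, the dehydrogenase of the first step, had levels of 12.39, 12.30 and 12.27 in TG tamoxifen, against 12.17, 9.67 and 11.41 in TG vehicle. The TG vehicle hearts were spread over a wide range, with 1 of them just under the TG tamoxifen hearts. The change of 1.24 ± 0.71 did not pass the test (adjusted p = 0.221, and 0.138 without the array labelled NTG tamoxifen 1). This gene has 4 probe sets of its own, all of a kind that the platform marks as possibly matching other transcripts, and the brightest of them stood for the gene. The other 3 gave changes of 3.24, 2.66 and 2.09, and the mean over its probe sets passed the test, with a change of 2.31 (adjusted p = 0.0226). That was the only 1 of 26 alternatives in which Phgdh passed. With the beta-actin ratio as a covariate the change of the brightest probe set was 0.28 (adjusted p = 0.903). The 2 probe sets shared with another gene gave 2.87 and 4.12.

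Psph, the phosphatase of the last step, had levels of 11.53, 11.22 and 11.42 in TG tamoxifen, against 10.88, 10.90 and 10.97 in TG vehicle. The groups did not overlap, but the change was small, at 0.47 ± 0.16. Its adjusted p was 0.0562 with all arrays and 0.0494 without the array labelled NTG tamoxifen 1.

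Of the 4 mitochondrial folate enzymes, Mthfd2 rose and the other 3 did not pass the test. Mthfd2, the dehydrogenase and cyclohydrolase that is low in most adult tissues, had levels of 13.38, 13.08 and 13.17 in TG tamoxifen, against 8.76, 9.01 and 8.83 in TG vehicle. Both groups were tight, and the change was 4.34 ± 0.56 (adjusted p = 0.00172). Its second probe set had levels of 12.79, 12.66 and 12.39, against 9.28, 9.51 and 10.97, a change of 2.69. In the 8 arrays outside TG tamoxifen and the array labelled NTG tamoxifen 1, the mean of Mthfd2 was 9.34, under the intensity filter at 9.42, so it entered the test through its high arrays. With no filter, the change of the brighter probe set was the same and passed the test over all probe sets (adjusted p = 0.0192). The second probe set did not pass it (adjusted p = 0.0508). The brighter one was picked by its mean over all 12 arrays, high ones included (10.56 against 10.51).

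Shmt2, which feeds the mitochondrial pathway from serine, had levels of 12.42, 12.23 and 12.25 in TG tamoxifen, against 12.22, 12.88 and 12.41 in TG vehicle. The groups overlapped, the change was -0.20 ± 0.19 (95% interval -0.61 to 0.22, adjusted p = 0.474), and its 4 probe sets gave changes between -0.20 and 0.47. The probe set that stood for the gene is of the kind marked as possibly matching other transcripts. The only probe set not of that kind gave 0.01.

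Mthfd1l, the formate-releasing synthetase, had levels of 10.29, 9.47 and 9.59 in TG tamoxifen, against 9.15, 9.63 and 9.33 in TG vehicle. The groups overlapped, with a change of 0.41 ± 0.41 (95% interval -0.49 to 1.31, adjusted p = 0.497).

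Aldh1l2, the oxidising dehydrogenase, had levels of 11.06, 11.36 and 11.43 in TG tamoxifen, against 11.14, 10.13 and 10.30 in TG vehicle. The first TG vehicle heart lay above the lowest TG tamoxifen heart. The change was 0.76 ± 0.26, with an adjusted p of 0.0513 with all arrays, 0.0446 without the array labelled NTG tamoxifen 1 and 0.00768 without TG vehicle 1. With the beta-actin ratio as a covariate the change was 0.32 (adjusted p = 0.629). The 3 consecutive steps of the mitochondrial pathway thus held changes of -0.20 for Shmt2, 4.34 for Mthfd2 and 0.41 for Mthfd1l, and the differences between genes were not tested.

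Paralogs of these enzymes showed no call in this comparison. Mthfd2l, the mitochondrial relative of Mthfd2 found in adult tissues, had levels of 11.19, 11.75 and 11.44 in TG tamoxifen, against 11.52, 10.54 and 11.08 in TG vehicle, a change of 0.41 ± 0.27 (adjusted p = 0.276). The cytosolic Mthfd1, which carries out all 3 folate steps in 1 protein, changed by -0.19 ± 0.18 (adjusted p = 0.497). Cytosolic Shmt1 was lower in every TG tamoxifen heart (10.84, 11.32 and 11.23, against 11.81, 11.75 and 11.72 in TG vehicle), and its change of -0.63 ± 0.33 did not pass the test (adjusted p = 0.186). Aldh1l1, the cytosolic relative of Aldh1l2, had a change of -0.09 ± 0.26, and Chac2, the relative of Chac1, one of -0.36 ± 0.27.

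**Figure D2:**
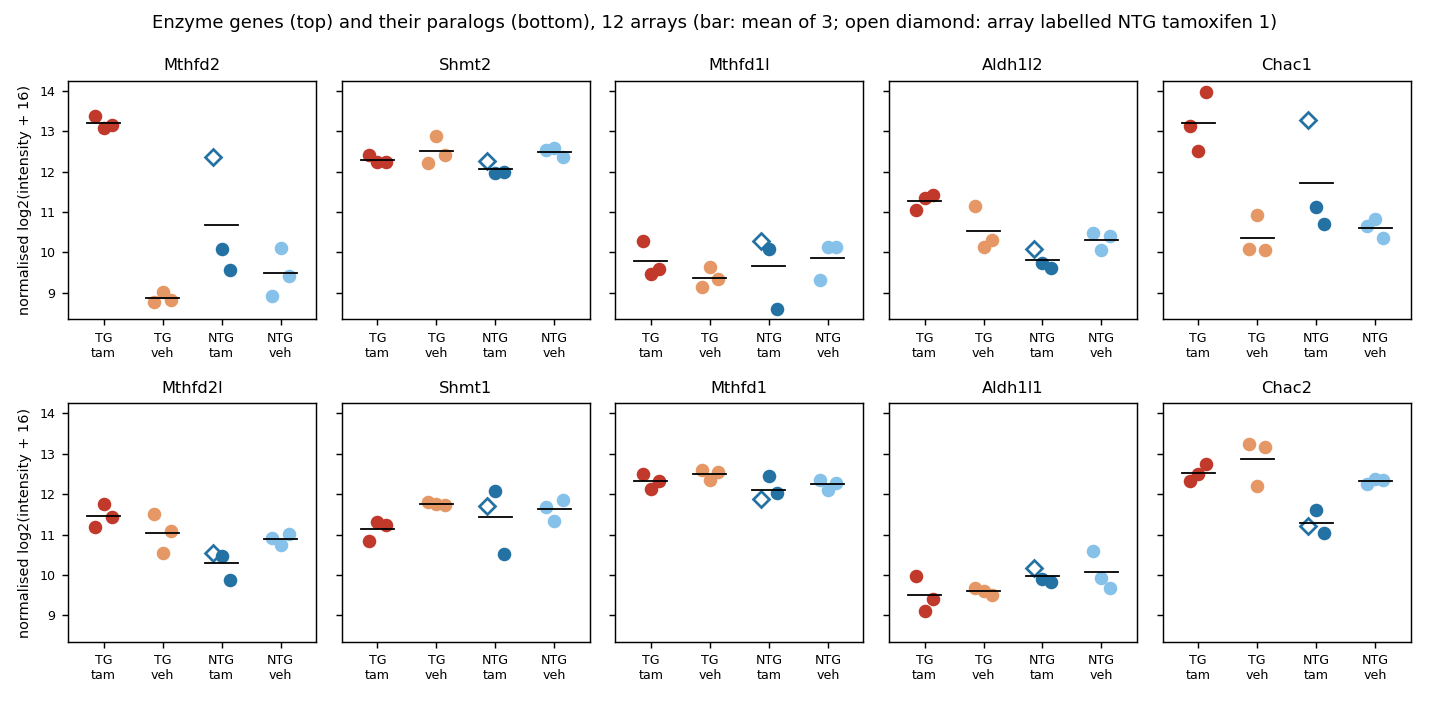
Quantile-normalised log2(intensity + 16) (vertical axis) of 5 enzyme genes in the top row and of their paralogs in the bottom row, by group from left to right: TG tamoxifen (tam), TG vehicle (veh), NTG tamoxifen and NTG vehicle. Points are hearts, bars are means of 3, and the open diamond is the array labelled NTG tamoxifen 1. Mthfd2 changed by 4.34 in TG tamoxifen against TG vehicle and Mthfd2l by 0.41, and Chac1 by 2.85 and Chac2 by -0.36.

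Asns, which makes asparagine from aspartate, rose. Its levels were 13.12, 12.75 and 13.00 in TG tamoxifen, against 10.15, 10.31 and 11.19 in TG vehicle. The groups did not overlap, and the change was 2.41 ± 0.57 (adjusted p = 0.0126). The second Asns probe set gave 3.09.

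Chac1, which cleaves glutathione, rose as well. Its levels were 13.13, 12.51 and 13.98 in TG tamoxifen, the widest spread among the genes that rose, against 10.08, 10.93 and 10.05 in TG vehicle. The change was 2.85 ± 0.58 (adjusted p = 0.00664).

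Aldh18a1, the synthase that opens proline and ornithine synthesis from glutamate, had levels of 13.89, 13.52 and 13.88 in TG tamoxifen, against 10.31, 11.29 and 11.95 in TG vehicle. It rose by 2.57 ± 0.63 (adjusted p = 0.0139). Its 5 probe sets were all positive but unequal in size, with changes of 0.60 to 2.57. The 4 besides the brightest gave 1.86, 1.30, 0.81 and 0.60. Only the probe set that gave 1.86 is not of the kind marked as possibly matching other transcripts. Tested among all probe sets, its adjusted p was 0.133, and 0.0145 without the array labelled NTG tamoxifen 1.

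Tested as single probe sets among all 45037, with no intensity filter, 5 of the 23 rose, beside 1.41% of all probe sets: both of Psat1, the brighter of Mthfd2, that of Chac1, and 1 of Phgdh, with a change of 3.24 (adjusted p = 0.0434). With the array labelled NTG tamoxifen 1 left out, 12 of the 23 rose, beside 2.9% of all probe sets. The changes themselves were the same, since that array belongs to neither group, and the SE became smaller. The 12 included both probe sets of Asns and of Mthfd2 and 3 of the 5 of Aldh18a1, and 0 of the 23 fell in either fit. Leaving out TG vehicle 1 or any NTG vehicle heart left 1 call, and leaving out any other TG heart left 0. At an unadjusted p under the same threshold, none of the 4 probe sets of Shmt2 passed.

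**Figure D3:**
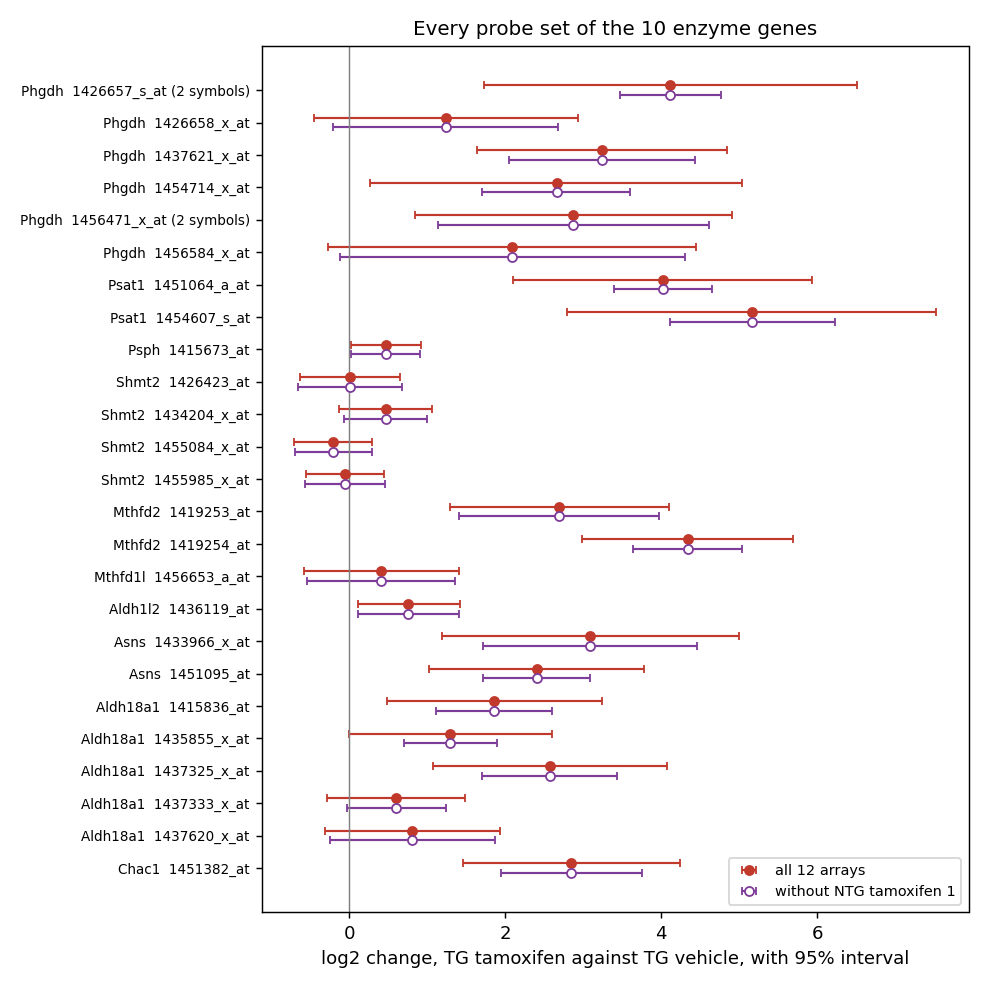
Log2 change in TG tamoxifen against TG vehicle (horizontal axis), with 95% intervals, for each of the 25 probe sets of the enzyme genes, fitted over all probe sets with all 12 arrays (filled) and without the array labelled NTG tamoxifen 1 (open). The points of Psat1 stand at 4.02 and 5.17 and those of Shmt2 between -0.20 and 0.47, while those of Phgdh run from 1.24 to 4.12.

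The stretch around the transcription start was read for the sequences that the factors of this response are known to bind. RefSeq promoters (GRCm38.p6, 250 bases before and 50 after the start) were at hand for 9 of the 10 genes, 10 sequences in all. The C/EBP-ATF response element (CARE, TGATGNAA), bound by ATF4 with a C/EBP partner, was searched on both strands, as were the ATF6-type UPRE (TGACGTGG), the CRE (TGACGTCA) and the ER stress element (ERSE, CCAAT, 9 bases, CCACG). The letters of the CARE occurred in 2 of the 9 genes, Asns and Chac1, and in 3.97% of 32851 promoters of this length. Those of the UPRE, CRE and ERSE occurred in none of the 9, and in 0.676%, 1.79% and 0.119% of all promoters. The CRE and UPRE share their first 6 letters, and no promoter here matched either. A match is a run of letters and not a measured binding site, and a missing match covers this window only. The CARE of Asns starts 23 bases before the transcription start, and is known from work on the human gene as its amino acid and ER stress element. That of Chac1 lies on the opposite strand, 193 bases before the start. Both are shown with the match in capitals, beside Mthfd2, which had none and, by the brightest probe set of each gene, the largest change among the 10 (by the mean of its probe sets Psat1 changed more, at 4.59 against 3.52 for Mthfd2); the start used for Mthfd2 lies inside the annotated span of the gene. The sequences are those of chr6:7693160-7693459 (minus strand) for Asns, chr2:119350992-119351291 (plus strand) for Chac1 and chr6:83317555-83317854 (minus strand) for Mthfd2.
Asns: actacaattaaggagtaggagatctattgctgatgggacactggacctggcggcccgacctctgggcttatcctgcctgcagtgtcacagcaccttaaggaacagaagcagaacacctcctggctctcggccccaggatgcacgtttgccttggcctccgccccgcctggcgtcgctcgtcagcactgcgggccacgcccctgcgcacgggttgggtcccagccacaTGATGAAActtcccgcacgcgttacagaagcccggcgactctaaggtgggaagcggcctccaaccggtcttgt
Chac1: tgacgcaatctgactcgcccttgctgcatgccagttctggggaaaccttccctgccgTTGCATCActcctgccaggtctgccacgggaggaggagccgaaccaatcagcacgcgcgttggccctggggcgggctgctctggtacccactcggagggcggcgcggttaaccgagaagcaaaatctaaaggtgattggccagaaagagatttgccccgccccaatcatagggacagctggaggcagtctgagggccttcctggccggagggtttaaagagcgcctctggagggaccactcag
Mthfd2: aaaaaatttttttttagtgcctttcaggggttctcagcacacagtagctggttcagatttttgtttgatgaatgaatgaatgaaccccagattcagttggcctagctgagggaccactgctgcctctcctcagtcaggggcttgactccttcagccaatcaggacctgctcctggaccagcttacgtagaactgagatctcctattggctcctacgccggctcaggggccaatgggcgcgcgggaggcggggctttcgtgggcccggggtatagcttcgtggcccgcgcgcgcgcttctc

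The second comparison, NTG tamoxifen against NTG vehicle, asks what tamoxifen did without the transgene, and here the array labelled NTG tamoxifen 1 set the group means. With all arrays, limma called 0 of the 10 enzyme genes in either direction, 1 had an unadjusted p under the threshold (Shmt2, with a change of -0.42), and 0.654% of all genes rose. Without that array, limma again called 0, 2 had an unadjusted p under the threshold (Shmt2 at -0.52 and Aldh1l2 at -0.65), and 0.725% of all genes rose. The probe sets of Shmt2 differed in sign: beside -0.42, the others gave -0.36, 0.46 and 0.31 with all arrays. The value of 0.46 is from the only one not marked as possibly matching other transcripts.

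On the array labelled NTG tamoxifen 1, the level of 7 of the 10 genes was above all 8 arrays of the remaining NTG hearts and the TG vehicle hearts, as held for 17.3% of all genes tested. Mthfd2 stood at 12.36 on it, against 10.09 and 9.57 in the remaining pair of NTG tamoxifen hearts and 8.91, 10.11 and 9.42 in NTG vehicle. Psat1 stood at 13.57, against 9.68 and 9.59 in NTG tamoxifen and 9.38, 9.70 and 9.86 in NTG vehicle. In both genes the array thus lay below the TG tamoxifen hearts and above the remaining NTG hearts. Asns stood at 13.40, Aldh18a1 at 14.56 and Phgdh at 13.08, each above all 3 TG tamoxifen hearts, and Chac1 at 13.29 lay within their range. Mthfd1l at 10.28 was above the other 8 arrays, the highest of which was 10.14. Psph at 10.81, Shmt2 at 12.26 and Aldh1l2 at 10.08 were within the range of the other 8.

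The effect of that array on the means was large. With it, the change in NTG tamoxifen against NTG vehicle was 1.30 ± 0.81 for Psat1, 1.19 ± 0.56 for Mthfd2, 1.16 ± 0.63 for Aldh18a1, 1.10 ± 0.58 for Chac1 and 1.04 ± 0.57 for Asns. Without it, the changes were -0.01 ± 0.27 for Psat1, 0.35 ± 0.31 for Mthfd2, 0.25 ± 0.39 for Aldh18a1, 0.31 ± 0.40 for Chac1 and 0.18 ± 0.30 for Asns. For Mthfd2 the remaining NTG tamoxifen hearts lay among the NTG vehicle hearts.

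**Figure D4:**
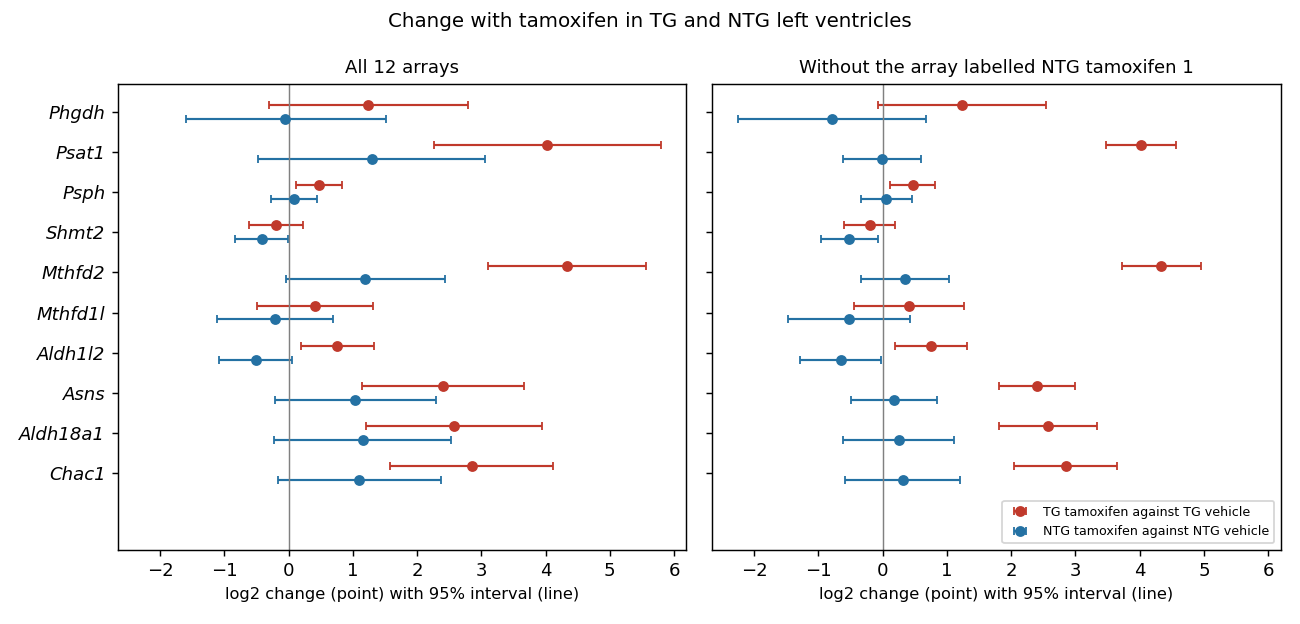
Log2 change (horizontal axis), with 95% intervals, of the 10 enzyme genes in TG tamoxifen against TG vehicle (red, upper point) and in NTG tamoxifen against NTG vehicle (blue, lower point), with all 12 arrays on the left and without the array labelled NTG tamoxifen 1 on the right. Psat1 changed by 4.02 in TG in both panels, and by 1.30 in NTG on the left and -0.01 on the right.

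The third comparison, TG vehicle against NTG vehicle, asks whether the fusion without drug changed these genes. With all arrays, limma called 0 of the 10, with 0 at an unadjusted p under the threshold, while 1.39% of all genes rose. Without the array labelled NTG tamoxifen 1, limma called 0, with 1 at an unadjusted p under the threshold (Mthfd2 at -0.61), while 3.1% of all genes rose. The changes ran from -0.61 for Mthfd2 to 0.26 for Psph. The second probe set of Mthfd2 had the opposite sign, at 0.64 ± 0.63 with all arrays. The 95% interval was -1.84 to 0.62 for Mthfd2 and -1.52 to 2.01 for Psat1. Without the array labelled NTG tamoxifen 1, which is in neither group but adds to the spread, it was -1.22 to -0.01 for Mthfd2 and -0.29 to 0.79 for Psat1. Esr1 was 10.32 ± 1.49 higher in TG vehicle than in NTG vehicle (adjusted p = 0.0117), so the receptor domain was measured in TG vehicle hearts.

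The fourth comparison, TG tamoxifen against NTG tamoxifen, sets the genotypes side by side under the drug. Of the 10 genes, 4 were higher in TG tamoxifen and 0 lower, beside 18.9% of all genes higher. They were Psat1 (2.97 ± 0.81, adjusted p = 0.0128), Mthfd2 (2.53 ± 0.56, 0.00461), Aldh1l2 (1.48 ± 0.26, 0.00134) and Psph (0.64 ± 0.16, 0.00987). Without the array labelled NTG tamoxifen 1, 7 were higher, beside 20.9% of all genes: these 4, with Chac1 at 2.29, Asns at 2.16 and Aldh18a1 at 1.92. Psat1 then stood at 4.28 ± 0.27 and Mthfd2 at 3.38 ± 0.31. This comparison shares the TG tamoxifen hearts with the first. Levels of Aldh1l2 in NTG tamoxifen were 10.08, 9.73 and 9.61, against 10.48, 10.06 and 10.42 in NTG vehicle, and those of TG tamoxifen all lay above the NTG tamoxifen hearts. Among the paralogs, Chac2 was higher in TG tamoxifen by 1.23 ± 0.27 (adjusted p = 0.0041) and Mthfd2l by 1.17 ± 0.27 (adjusted p = 0.00526), and for both the NTG tamoxifen hearts were low: every one lay under every NTG vehicle heart.

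The last comparison tests whether the tamoxifen effect in TG mice differs from that in NTG mice. All 10 differences were positive, with a median of 1.33 beside -0.07 over all genes, and 2 passed the test, beside 7.5% of all genes: Mthfd2 at 3.15 ± 0.80 (adjusted p = 0.0263) and Aldh1l2 at 1.27 ± 0.37 (adjusted p = 0.0407). Without the array labelled NTG tamoxifen 1, 6 passed, beside 11.8% of all genes: Psat1 at 4.03, Mthfd2 at 3.99, Chac1 at 2.54, Aldh18a1 at 2.32, Asns at 2.23 and Aldh1l2 at 1.41. With no intensity filter neither passed (adjusted p = 0.0776 for Mthfd2 and 0.105 for Aldh1l2), and Mthfd2 had entered the filtered test through its high arrays. The calls with all arrays were fragile: Mthfd2 passed in 10 of 25 alternative settings and Aldh1l2 in 8, with adjusted p from 0.00045 to 0.746 and from 0.00666 to 0.885. With the beta-actin ratio as a covariate the differences were 2.16 for Mthfd2 and 0.4 for Aldh1l2. The second probe set of Mthfd2 had a smaller difference, 1.74 ± 0.89 in the fit over all probe sets (adjusted p = 0.353). Leaving out TG tamoxifen 1, TG tamoxifen 3, TG vehicle 2, TG vehicle 3, NTG tamoxifen 2, NTG tamoxifen 3, NTG vehicle 2 or NTG vehicle 3 left 0 calls.

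Upstream of the 10 genes, Atf4 itself rose in TG tamoxifen. Its levels were 15.75, 15.30 and 15.95 in TG tamoxifen, against 13.92, 13.11 and 13.77 in TG vehicle, a change of 2.07 ± 0.42 (adjusted p = 0.00656). On the array labelled NTG tamoxifen 1 it stood at 13.99, just above the highest TG vehicle heart and below every TG tamoxifen heart. The remaining NTG tamoxifen hearts stood at 12.28 and 12.13, and those of NTG vehicle at 13.17 to 13.31. In Atf4, as in Psat1 and Mthfd2, that array thus lay below the TG tamoxifen hearts and above all remaining hearts. ATF4 is controlled mainly through its translation, which arrays do not measure. Atf6 fell by 1.05 on the log2 scale (adjusted p = 0.00587). Eif2ak3, the ER kinase of eIF2alpha known as PERK, rose by 1.96 ± 0.28 (adjusted p = 0.00175), and Eif2ak2, its relative that senses double-stranded RNA, by 1.22 ± 0.27. In the list of eIF2alpha kinases and mitochondrial stress genes, 2 of 15 tested genes rose and 3 fell, beside 10.4% and 14.4% of all genes. Those that fell included the mitochondrial proteases Clpp (-0.96) and Oma1 (-0.85).

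The other known targets of ATF4 went in both directions. Of 25 tested genes in that list, Atf4 included, 4 rose and 3 fell, with a median of 0.48. Among all genes tested, 10.4% rose and 14.4% fell. Ddit3, the stress factor CHOP, rose by 2.08 ± 0.40 (adjusted p = 0.00505). The lipoprotein receptor Vldlr fell by 1.22 and Gpt2, a mitochondrial alanine transaminase, by 0.74. With the array labelled NTG tamoxifen 1 left out, 8 were called higher and 3 lower. All 16 tested ER targets of ATF6 rose, with a median of 2.35. Among them were Hspa5 at 2.41 ± 0.52 (adjusted p = 0.00837) and the chaperone Dnajc3 at 3.42 ± 0.53 (adjusted p = 0.00235). For the difference between the tamoxifen effects, 1 of these 16 was called higher with all arrays, beside 7.5% of all genes. Without the array labelled NTG tamoxifen 1, 14 were called higher, beside 11.8%. Which factor acted on which gene was not tested.

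Around the pathway, the share of genes that rose in TG tamoxifen against TG vehicle can be read against the 10.4% of all genes that rose and the 14.4% that fell. Of 17 further folate and one-carbon genes tested, 1 rose and 0 fell, with a median of -0.06: Slc25a32, the carrier that brings folate into mitochondria, at 1.58 ± 0.38 (adjusted p = 0.0124). Of 6 genes of the glycine cleavage system and of serine and glycine breakdown, 1 rose: Gcsh, the carrier protein of the cleavage system, at 1.11 ± 0.33 (adjusted p = 0.0318). Of 13 transporters of serine, glycine and asparagine, 2 rose: Slc38a4 at 1.16 ± 0.33 and Slc36a4 at 0.73 ± 0.23. Of 8 proline and ornithine genes, 1 rose and 2 fell: Odc1, which makes putrescine from ornithine, at 1.5 ± 0.33, against P4ha2, a collagen prolyl hydroxylase, at -0.76 ± 0.17, and Aldh4a1, which degrades proline, at -0.72 ± 0.21. With the array labelled NTG tamoxifen 1 left out, the genes that rose numbered 2, 1, 3 and 2 in these 4 lists.

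Of 11 tested genes of aspartate, asparagine, glutamate and alanine metabolism, 0 rose and 6 fell, beside 10.4% and 14.4% of all genes, with a median of -0.74. They included Adssl1, the muscle adenylosuccinate synthase, at -2.43 ± 0.38 (adjusted p = 0.00246), the alanine transaminase Gpt at -1.89 ± 0.32 (0.00325), Asrgl1, an asparaginase, at -1.15 ± 0.27 (0.0115) and the mitochondrial aspartate transaminase Got2 at -0.94 ± 0.17 (0.00362). With the array labelled NTG tamoxifen 1 left out, 2 were called higher and 6 lower. Of 12 glutathione genes, beside Chac1, 3 rose and 3 fell. Gclc, the catalytic subunit that starts glutathione synthesis, rose by 1.26 ± 0.22 (adjusted p = 0.00341). Oplah, which recycles the 5-oxoproline that Chac1 releases, fell by 2.69 on the log2 scale (adjusted p = 0.00291), and the glutathione transferases Gsta4 and Gstm1 by 2.02 and 0.94.

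The markers of other cells in the ventricle moved between the same groups, and their part in the changes above was not tested. The summed intensity of 8 cardiomyocyte markers was 2040000 to 2180000 in TG tamoxifen and 2200000 to 2210000 in TG vehicle, and 1 of the 8 fell, Ryr2, by 0.90. That of 11 markers of dividing cells, of which 4 passed the filter, was 35800 to 43300 in TG tamoxifen and 22700 to 27200 in TG vehicle, with 1 of the 4 rising, Top2a, at 1.82 ± 0.33. For NTG tamoxifen and NTG vehicle it was 12700 to 20000 and 15100 to 18800. That of 8 macrophage markers was 99400 to 148000 in TG tamoxifen and 59200 to 120000 in TG vehicle, overlapping, and 1 of the 8 rose, Ptprc, by 1.40. That of 8 fibroblast markers was 205000 to 234000 in TG tamoxifen and 236000 to 272000 in TG vehicle, with 1 rising (Col3a1) and 2 falling (Tcf21 and Dcn). That of 6 endothelial markers was 27800 to 30500 in TG tamoxifen and 35600 to 46900 in TG vehicle, and 4 of the 6 fell. Of all genes tested, 10.4% rose and 14.4% fell between these groups.

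Across the 12 arrays Mthfd2 was high on 4 and low on 8, and a correlation over 2 such sets is a description only. Pearson's r with Mthfd2 was 0.958 for Psat1, 0.948 for Chac1, 0.928 for Asns and 0.914 for Aldh18a1, and -0.214 for Shmt2. Within the 8 low arrays r was 0.676 for Chac1, 0.487 for Aldh18a1, 0.0879 for Asns and -0.134 for Psat1. For the remaining members it was 0.516 for Mthfd1l, -0.257 for Phgdh, -0.333 for Shmt2, -0.539 for Psph and -0.691 for Aldh1l2. The genes tested outside the 10 were also ranked, leaving out predicted and clone-named genes (symbols of the Gm, Rik and LOC kinds). The 5 with the highest r were Dnajc3 (0.978), Stbd1 (0.974), P4hb (0.968), Traf7 (0.961) and Nhp2 (0.961), of which Dnajc3 and P4hb are ER chaperones. The 5 with the lowest were Slc46a3 (-0.990), Atp6v0e2 (-0.984), Auh (-0.983), Pdf (-0.981) and Selenop (-0.979).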

How the data were processed

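Left ventricles of 12 mice were measured on 1-colour arrays, 3 per group, grouped by sample titles. The values deposited by the authors are linear intensities, with 1 value for each probe set on each array. Trimmed of 2% at either end, they averaged 2500.02 on all arrays, so each array had been scaled to the same target. Per the labels, labelling and hybridisation followed the manufacturer's expression protocol. Which software summarised the probe sets is not given in the sources used, and no detection calls were used. Dim values therefore have no stated bound, and the number of arrays limits the precision.

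From the deposited intensities, log2(value + 16) was taken and quantile-normalised, since array medians spanned 0.355 on the log2 scale. Control probe sets (64) were dropped. Of 45037 probe sets, 34945 had 1 symbol, 932 several and 9160 none in the platform annotation. The probe set with the highest mean stood for a gene, and genes under the 50th percentile of all probe sets (intensity 670.3) were left out, leaving 11166 of 18193. All 10 enzyme genes passed. The offset understates changes of dim genes.

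limma 3.58.1 in R 4.3.3 fitted 4 group means over 12 arrays (8 residual and 3.55 prior degrees of freedom, two-sided, Benjamini-Hochberg, threshold 0.05). The same fit was run over all 45037 probe sets with no filter, and both without the array labelled NTG tamoxifen 1. The 5 comparisons and their alternatives (offset, normalization, filter, probe set rule, arrays in the fit, grouping of TG vehicle 3, RNA quality, array weights, replicate block, each array left out) are in the closing section. The scripts were tested on simulated data. The members and lists were chosen with earlier results of these data known, so counts over them are descriptions. Named genes are all members and their paralogs, Atf4, Atf6, Esr1 and Hspa5, the genes most like and unlike Mthfd2, and up to 4 called genes per list in the first comparison (up to 2 in others), by smallest adjusted p. Same-numbered arrays did not deviate together (correlations -0.09 to 0.09 in 18 pairs, against -0.10 to 0.14 in 36 others). These values cannot show whether the numbers link hearts, which the labels do not say. The main fit has no block for the numbers.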

Additional observations from a re-analysis of the deposited data

Results flagged for a closer look

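For 2 of the 10 enzyme genes, the test of the difference between the TG and NTG tamoxifen effects passed the threshold among the genes kept by the intensity filter, and for neither did it pass with no filter. For Mthfd2 the difference was 3.15 ± 0.80 on the log2 scale, from a change of 4.34 in TG mice and 1.19 in NTG mice. That value is from the brighter probe set, and the second one had a smaller difference, 1.74 ± 0.89. In the limma fit over all probe sets neither passed (adjusted p = 0.117 for the brighter and 0.353 for the second). When both were averaged, the difference fell to 2.44 and missed the threshold (adjusted p = 0.055). For Aldh1l2 the difference was 1.27 ± 0.37, from a change of 0.76 in TG mice and -0.51 in NTG mice, neither of which passed the test alone. With the beta-actin ratio as covariate the differences were 2.16 for Mthfd2 and 0.4 for Aldh1l2 (adjusted p = 0.746 and 0.885). With the array labelled NTG tamoxifen 1 also left out, they were 3.31 and 0.57 (adjusted p = 0.0926 and 0.69). With no filter the adjusted p was 0.0776 for Mthfd2 and 0.105 for Aldh1l2, and with a filter at the 25th percentile 0.0544 and 0.0744. Mthfd2 had entered the filtered test through its high arrays. The calls also moved with single arrays: without the array labelled NTG tamoxifen 1 the differences were 3.99 and 1.41, both past the threshold, and without TG tamoxifen 1 they were 3.06 and 1.39, neither past it.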

How the results depend on the processing

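In TG tamoxifen against TG vehicle, 5 of the 10 genes rose, and this became 0 with TG vehicle 3 grouped as TG tamoxifen, 0 with the beta-actin ratio as covariate, 2 without both TG vehicle 3 and TG tamoxifen 1, 7 with median centring (Psph and Aldh1l2 added), 6 each with array weights, an offset of 64 and the mean of the probe sets, and 5 to 7 with each array left out. In TG tamoxifen against NTG tamoxifen, 4 became 2 with TG vehicle 3 regrouped, 2 without both arrays, 7 with array weights, 7 with the covariate and the array labelled NTG tamoxifen 1 left out (an alternative chosen after seeing the data), and 3 to 7 with each array left out. Psat1 lost its call when only the arrays of the groups compared were fitted (adjusted p = 0.0569). Chac1 gained a call with median centring (adjusted p = 0.0304). For the difference between the tamoxifen effects, 2 became 1 with the deposited scaling, 0 with no filter, 0 with a filter at the 25th percentile, 1 with the mean of the probe sets, 0 with TG vehicle 3 regrouped, 0 without both arrays, 0 with the covariate, 1 with the covariate and the array labelled NTG tamoxifen 1 left out, 4 with array weights, and 0 to 6 with each array left out. It cannot be fitted on the arrays of one pair of groups alone. In NTG tamoxifen against NTG vehicle and in TG vehicle against NTG vehicle, 0 genes were called in all 26 alternatives. Of the 23 probe sets, 5 became 1 with the replicate block, 0 with TG vehicle 3 regrouped, 0 without both arrays, 0 with the covariate, 8 with array weights, and 0 to 12 with each array left out. With the replicate number as a block, counts of genes were 5, 0, 0, 4 and 2 in the 5 comparisons. Over the single genes, 1290 alternative values kept the call in 1212, lost it in 52, gained it in 26 and reversed no called value. In TG tamoxifen against TG vehicle the change of Mthfd2 ran from 3.23 to 4.44 and was past the threshold in 24 of 26 alternatives, and that of Psat1 from 3.41 to 4.59, in 24. The causes were not tested. With 3 hearts per group, intervals of the genes without a call reached 2.79 for Phgdh and 1.31 for Mthfd1l.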

Other observations

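Glycolysis supplies the starting compound of serine synthesis, and its genes moved in both directions in TG tamoxifen against TG vehicle. Of 14 tested genes of the steps before 3-phosphoglycerate, 4 rose and 5 fell, with a median of -0.14; of all genes, 10.4% rose and 14.4% fell. Slc2a4, the insulin-responsive glucose transporter, was lower by -1.32 ± 0.17 (adjusted p = 0.00172), Pfkm, the muscle phosphofructokinase, by -2.08 ± 0.29 (0.00175) and Tpi1 by -1.15 ± 0.20 (0.00376), while Pfkp, the platelet form of phosphofructokinase, was higher by 1.42 ± 0.26 (0.00404). Purine synthesis, a user of the formate that mitochondria export, held 1 gene that rose and 2 that fell among 12 tested: Ppat, its first enzyme, at 0.64 ± 0.18, against Adssl1 at -2.43 and Adsl at -0.68 ± 0.16, shares near those of all genes. Counts were the same without the array labelled NTG tamoxifen 1.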
